A study of Homo sapiens with 4 samples.

Results

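The genes described here encode the enzymes that make and break down the cyclic nucleotides cAMP and cGMP, together with the protein kinases that these messengers switch on. They were chosen by symbol among the protein-coding genes of GENCODE release 29. The choice took the phosphodiesterase genes PDE1 to PDE11 followed by a letter from A to D, the adenylyl cyclases (ADCY), the guanylyl cyclases (GUCY), the subunits of protein kinase A (PKA; PRKACA, PRKACB, PRKAR1A, PRKAR1B, PRKAR2A and PRKAR2B) and the cGMP-dependent kinases (PKG; PRKG1 and PRKG2). This gave 47 Ensembl gene identifiers with 46 symbols among 19951 protein-coding genes, since PDE11A has 2 identifiers. PDE6D is taken in by its symbol although its product is a prenyl-binding protein and not an enzyme.

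HepG2 and Huh7 are established cell lines from human liver cancers. The 4 groups were sequenced as 1 library each, made from total RNA after removal of ribosomal RNA. Group A was HepG2 before treatment and group B HepG2 after it, whereas group C was Huh7 before treatment and group D Huh7 after it. In the treatment, targeted nanobubbles carrying the sonosensitizer HMME and lonidamine (LND), an inhibitor of tumor energy metabolism, were given with low-frequency ultrasound, which is called sonodynamic therapy (SDT). No group received only the drug, only the bubbles or only ultrasound, so their parts in any difference between B and A or between D and C cannot be told apart.

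The tables examined here hold names of genes and numbers of genes. For each comparison, B vs. A in HepG2 and D vs. C in Huh7, they name the mRNAs that the authors called differentially expressed at an adjusted p-value under 0.05, sorted under GO terms and KEGG pathways. A gene named under any GO term of a comparison is called listed below. The tables give neither the level of a gene in a library, nor the size or the direction of its difference, nor its own p-value. Listed therefore means a difference in either direction between 2 single libraries, with no replicate error behind it. A gene that was not listed may have been weakly expressed, absent or unchanged, and a gene without a GO term could not be listed. A gene listed in 1 cell line and not in the other is not shown to differ between the cell lines, because that difference was not tested.

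The cyclases convert ATP to cAMP and GTP to cGMP, and the phosphodiesterases (PDEs) hydrolyse both messengers, so the balance of these families sets the level of the messengers in the cell. cAMP releases the catalytic subunits of PKA from its regulatory subunits, and PKA then phosphorylates enzymes, channels and the transcription factor CREB, while cGMP activates PKG, opens ion channels and acts on some PDEs. In hepatocytes glucagon and adrenaline act through cAMP and PKA to drive glucose output, and insulin opposes them in part through PDE3B.

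CREB binds the cAMP response element, a palindrome that reads TGACGTCA on both strands. The promoter sequences of the members were searched for this element because it ties a gene's own promoter to the pathway the gene belongs to. RefSeq promoters of GRCh38.p14, from 250 bases before to 50 bases after a start site, were found for 39 of the members, and 3 of these held the element (7.69%). Among all protein-coding genes with a promoter sequence, 475 of 15843 held it (3.0%), and among their promoter windows 501 of 22199 did (2.26%). By window, 4 of 102 windows of the members held it (3.92%), with the PRKAR1A element counted once for each of its start sites. The 39 members had 102 windows and the 15843 genes 22199, so the shares by gene do not rest on like numbers of windows per gene. The 3 genes are shown with 11 bases on either side of the element, which is in capitals, 5′ to 3′ on the + strand.
PDE7B: actaaacccttTGACGTCActcttgaaatg
PRKAR1A: gcgaggcgcatTGACGTCAgtagccgaacg
PDE4A: cgtcagtccgcTGACGTCAcgccccaggag
The PDE7B stretch lies at chr6:135851535-135851564, and its element begins at base -155 from the start site. The PRKAR1A stretch lies at chr17:68512370-68512399, where the element begins at base -49 from one start site and at base 3 from another. The PDE4A stretch lies at chr19:10416759-10416788, with the element beginning at base -3 from the start site. PDE7B, a cAMP-specific PDE, was listed in both cell lines. PRKAR1A, the type I alpha regulatory subunit of PKA, and PDE4A, a cAMP-specific PDE inhibited by rolipram, were listed in HepG2 and not in Huh7. Of the members with a promoter sequence, 3 of 15 listed in HepG2 held the element, against 1 of 15 listed in Huh7 and 0 of 18 listed in neither. The 1 in Huh7 was PDE7B, which is also among the 3 in HepG2. The share among all listed protein-coding genes was not counted, and no link between the element and the listing was tested. A match of these letters is a description of the window, and binding of CREB was not measured.

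In HepG2 18 of the 47 identifiers were listed (38.3%), against 23.9% of all protein-coding genes. In Huh7 18 were listed as well (38.3%), against 21.9% of all protein-coding genes. The members listed in both cell lines numbered 10 (21.3%), against 11.4% of all protein-coding genes, and they were 55.6% of each of the 2 member lists. For all protein-coding genes, the shared genes were 47.7% of the HepG2 list and 52.2% of the Huh7 list. A further 8 members were listed only in HepG2, 8 only in Huh7 and 21 in neither.

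**Figure D1:**
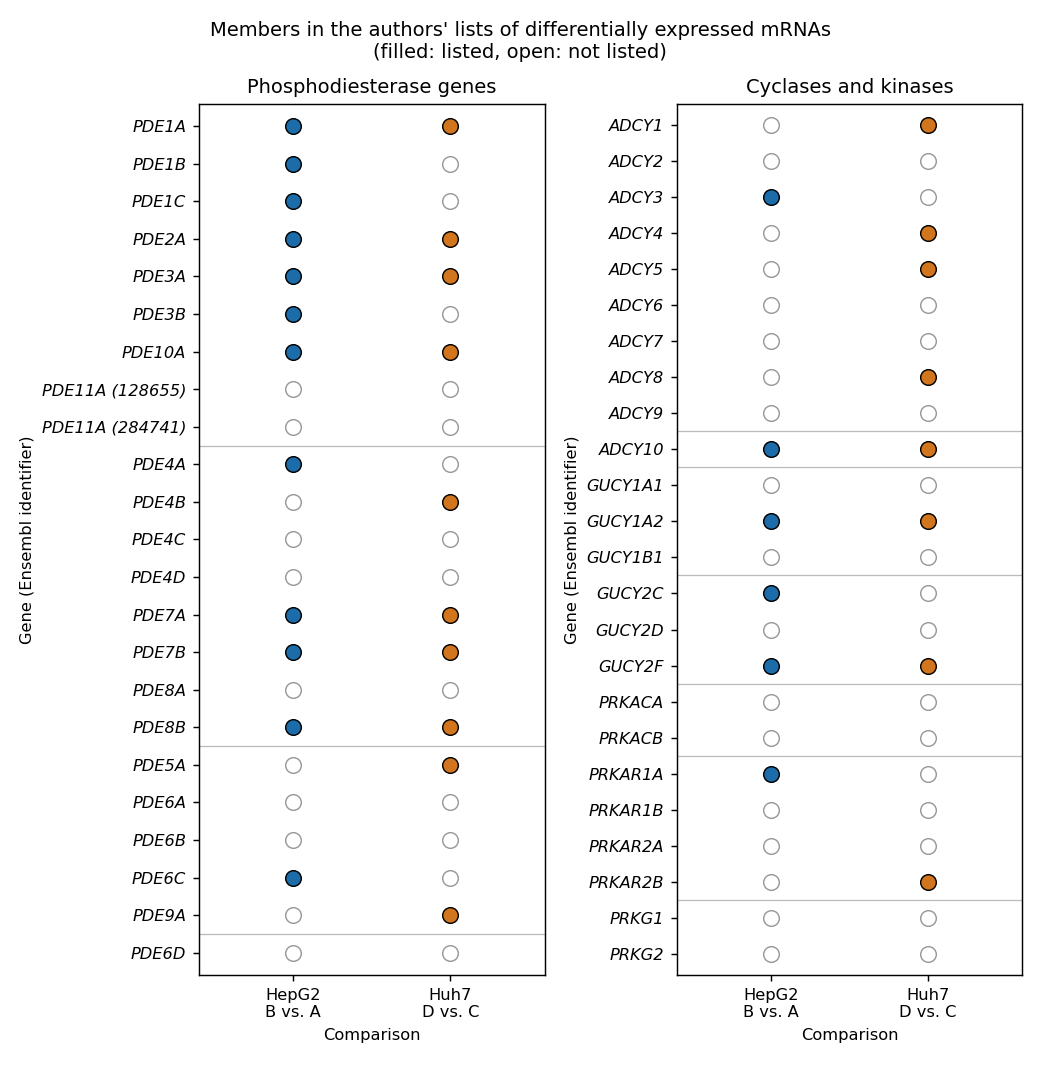
Listing of each of the 47 identifiers in the comparison of B with A (HepG2, blue) and of D with C (Huh7, orange), where a filled circle is a listed gene, an open circle is a gene that was not listed, and grey lines separate the classes of enzyme. Of the PDE identifiers 7 are filled in both columns, and both PKG genes and both catalytic subunits of PKA are open in both columns; the numbers beside PDE11A are the last digits of its 2 Ensembl identifiers.

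The members listed in both cell lines were the soluble adenylyl cyclase ADCY10, the guanylyl cyclases GUCY1A2 and GUCY2F, and the PDE genes PDE1A, PDE2A, PDE3A, PDE7A, PDE7B, PDE8B and PDE10A. Those listed only in HepG2 were ADCY3, GUCY2C, PDE1B, PDE1C, PDE3B, PDE4A, PDE6C and PRKAR1A. Those listed only in Huh7 were ADCY1, ADCY4, ADCY5, ADCY8, PDE4B, PDE5A, PDE9A and PRKAR2B. The remaining members, listed in neither, were ADCY2, ADCY6, ADCY7, ADCY9, GUCY1A1, GUCY1B1, GUCY2D, PDE4C, PDE4D, PDE6A, PDE6B, PDE6D, PDE8A, PDE11A under both identifiers, PRKACA, PRKACB, PRKAR1B, PRKAR2A, PRKG1 and PRKG2.

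The adenylyl cyclases were listed in different numbers in the 2 cell lines. In HepG2 2 of the 10 genes were listed (20.0%), which is close to the 23.9% of all protein-coding genes, and in Huh7 5 of 10 were listed. ADCY10, which answers to bicarbonate and calcium rather than to G proteins, was the gene they shared. Of the 9 membrane-bound cyclases, which G proteins control, HepG2 had only ADCY3, the cyclase of olfactory neurons and of many other cells. Huh7 had ADCY1 and ADCY8, which calcium and calmodulin stimulate, ADCY5, which calcium inhibits, and ADCY4, which G protein beta-gamma subunits stimulate. No membrane-bound cyclase was listed in both. For 9 genes this is close to the 11.4% of all protein-coding genes that were listed in both. ADCY2, ADCY6, ADCY7 and ADCY9 were listed in neither.

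The 6 guanylyl cyclase genes fall into subunits of the nitric oxide receptor and membrane receptors with a cyclase domain. Of the 3 nitric oxide receptor subunits, the alpha-2 subunit GUCY1A2 was listed in both cell lines, whereas the alpha-1 subunit GUCY1A1 and the beta-1 subunit GUCY1B1, with which either alpha subunit pairs, were listed in neither. Of the 3 receptor cyclases, the retinal cyclase GUCY2F was listed in both, the guanylin receptor GUCY2C only in HepG2, and the retinal cyclase GUCY2D in neither. In all, 3 of 6 guanylyl cyclases were listed in HepG2 and 2 of 6 in Huh7. The shares over all protein-coding genes were 23.9% in HepG2 and 21.9% in Huh7. In so small a class, losing either listed gene would bring the Huh7 share below that of all protein-coding genes.

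The PDE genes made up most of the listed members. Of 23 PDE identifiers, 12 were listed in HepG2 (52.2%), 10 in Huh7 (43.5%) and 7 in both. The shares over all protein-coding genes were 23.9% in HepG2, 21.9% in Huh7 and 11.4% in both. Among the PDE classes, those that hydrolyse both messengers, PDE1, PDE2, PDE3, PDE10 and PDE11, had the highest share in HepG2. There 7 of the 9 identifiers were named (77.8%), against 4 of 9 in Huh7 (44.4%). The classes were assigned after the listings had been seen, so this ranking was not set in advance. PDE2A, which cGMP stimulates, and PDE10A were listed in both cell lines. PDE1A, 1 of the 3 PDEs that calmodulin activates, was listed in both, while the other members of that family, PDE1B and PDE1C, were listed only in HepG2. PDE3A, which cGMP inhibits, was listed in both, while its relative PDE3B was listed only in HepG2.

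Among the 8 cAMP-specific PDEs, 4 were listed in each cell line and 3 of them were the same genes. PDE7A, PDE7B and PDE8B, which rolipram does not inhibit, were listed in both. Of the rolipram-sensitive PDE4 family, PDE4A was listed only in HepG2 and PDE4B only in Huh7, and PDE4C and PDE4D were listed in neither. Among the 5 cGMP-specific PDEs, HepG2 had 1 (20.0%), the cone photoreceptor enzyme PDE6C, a share near that of all protein-coding genes. Huh7 had 2 (40.0%), PDE5A, the target of sildenafil, and PDE9A. No cGMP-specific PDE was listed in both, which for 5 genes is close to the 11.4% of all protein-coding genes listed in both.

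Few kinase genes were named. In each cell line 1 of 8 was listed (12.5%), below the shares of 23.9% and 21.9% over all genes, and in both cell lines it was a regulatory subunit of PKA. It was PRKAR1A in HepG2 and PRKAR2B, the type II beta regulatory subunit, in Huh7. The catalytic subunits PRKACA and PRKACB and the kinases PRKG1 and PRKG2 were listed in neither. With 8 genes, 1 gene more or fewer moves this share past or away from the background.

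**Figure D2:**
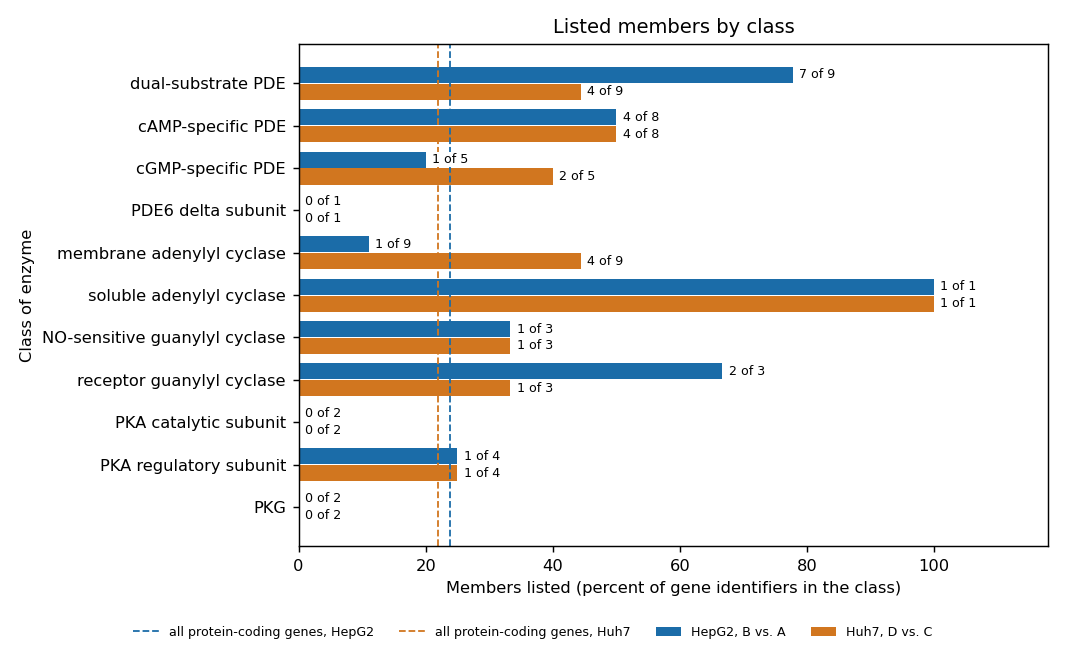
Share of the identifiers of each class of enzyme that were listed in HepG2 (blue, B vs. A) and Huh7 (orange, D vs. C), in percent from 0, with the number of listed identifiers beside each bar and the shares of all protein-coding genes (23.9% and 21.9%) as dashed lines. The PDEs that act on both messengers reach 7 of 9 in HepG2, the membrane-bound adenylyl cyclases stand at 1 of 9 and 4 of 9, and the classes PKG, PKA catalytic subunit and PDE6 delta subunit are at 0; the classes hold 1 to 9 identifiers.

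The GO terms for the enzyme activities gave the same families beside other annotated genes. Over the whole GO background, 21.6% of genes were listed in HepG2 and 19.7% in Huh7. Of the 15 background genes of the term for 3',5'-cyclic-AMP phosphodiesterase activity, 10 were listed in HepG2 (66.7%) and 8 in Huh7 (53.3%), all of them members, and 7 were the same genes. For 3',5'-cyclic-GMP phosphodiesterase activity, 9 of 20 genes were listed in HepG2 (45.0%) and 7 of 20 in Huh7 (35.0%). This term also counts PRKAR1A and PRKAR2B, which are not PDEs, as the authors' annotation places them there. All 5 genes of the term for cGMP catabolic process were listed in Huh7, namely PDE1A, PDE2A, PDE5A, PDE9A and PDE10A, and 3 of them, PDE1A, PDE2A and PDE10A, were listed in HepG2. All 3 genes of the calmodulin-dependent PDE term were listed in HepG2 and 1 in Huh7. These last 2 terms hold fewer than 10 background genes. They were picked from the top of an order by listed members per background gene. That all their genes were listed in at least 1 cell line is therefore part of the choice.

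Among the terms for synthesis, adenylate cyclase activity had 2 of 12 genes listed in HepG2 (16.7%) and 5 of 12 in Huh7 (41.7%). Both genes of the calcium- and calmodulin-responsive adenylate cyclase term, ADCY1 and ADCY8, were listed in Huh7 and neither in HepG2. This small term was picked by the same order. For guanylate cyclase activity, 3 of 9 genes were listed in each cell line (33.3% each). For signaling downstream, cAMP-mediated signaling had 24 of 65 genes listed in HepG2 (36.9%) and 20 of 65 in Huh7 (30.8%), and cGMP-mediated signaling had 13 of 33 in each (39.4% each). Terms on cyclic nucleotides with at least 10 background genes numbered 68, of which 57 in HepG2 and 62 in Huh7 had a share above that of the whole GO background. The same count was not made for GO terms on other subjects, so it does not show that cyclic nucleotide terms stand apart. The cyclic nucleotide terms nest and share genes, so they are not independent of each other.

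**Figure D3:**
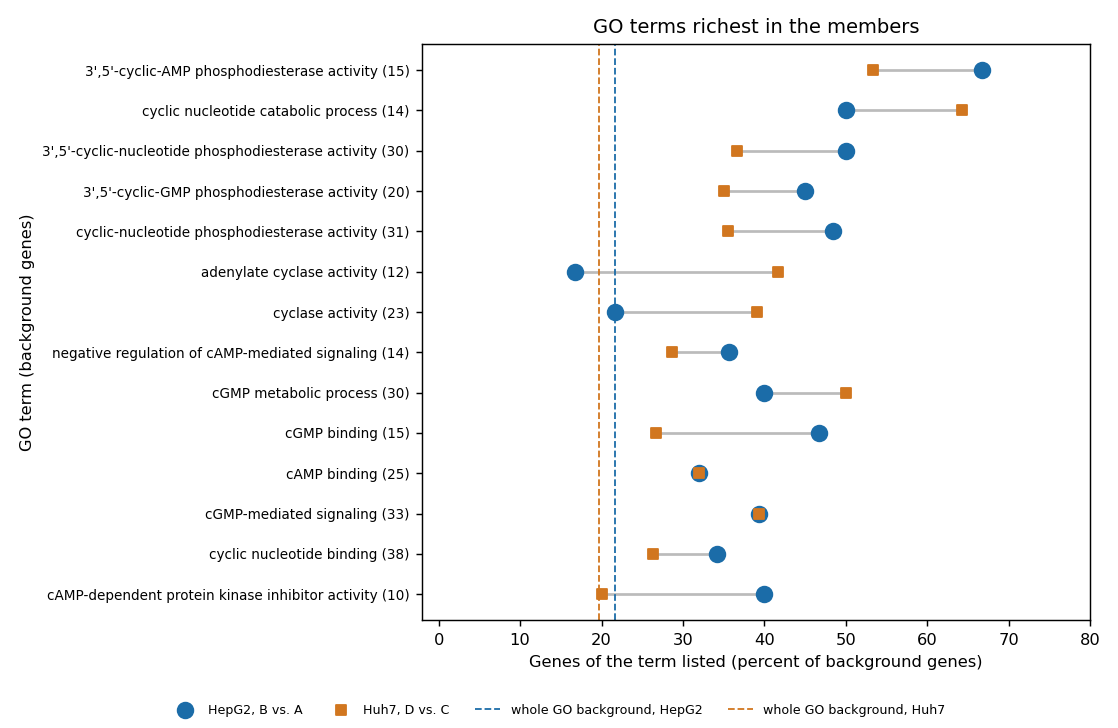
Percent of the background genes of a GO term that were listed in HepG2 (blue circles) and Huh7 (orange squares), for the cyclic nucleotide terms with at least 10 background genes of which the listed members make up a fraction of 0.2 or more, ordered by that fraction, with the number of background genes in brackets and the shares of the whole GO background (21.6% and 19.7%) as dashed lines. The cAMP phosphodiesterase term is highest in HepG2 at 66.7%, adenylate cyclase activity lies below the dashed line in HepG2 at 16.7% and above it in Huh7 at 41.7%, and a square inside a circle marks equal shares. The terms were chosen by their listed members, so a place above the dashed lines is in part fixed by that choice.

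The KEGG pathways that carry the names of the messengers held 6 of the 18 listed members in HepG2 and 9 of the 18 in Huh7. In the cGMP-PKG signaling pathway (hsa04022), 52 of 167 background genes were listed in HepG2 (31.1%), against 26.3% of all gene entries over the KEGG pathways of that comparison. The members among them were ADCY3, GUCY1A2, PDE2A, PDE3A and PDE3B. In Huh7 55 of 167 were listed (32.9%), against 25.8% of all entries, and the members were ADCY1, ADCY4, ADCY5, ADCY8, GUCY1A2, PDE2A, PDE3A and PDE5A. In the cAMP signaling pathway (hsa04024), 65 of 200 genes were listed in HepG2 (32.5%), with ADCY3, PDE3A, PDE3B and PDE4A as members. In Huh7 73 of 200 were listed (36.5%), with ADCY1, ADCY4, ADCY5, ADCY8, PDE3A and PDE4B as members. PDE3A was the only member named in both pathways in both cell lines.

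Most genes listed in these pathways were not members. With the listed members left out of both counts, 47 of 162 genes of the cGMP-PKG pathway remained as listed in HepG2 and 47 of 159 in Huh7. For the cAMP pathway 61 of 196 and 67 of 194 genes remained. Members that were not listed stayed in the background counts, so leaving out the listed ones can only lower the share. Among the 80 pathways with at least 100 background genes, ordered by the share listed, the cGMP-PKG pathway stood at rank 20 in HepG2 and rank 8 in Huh7, and the cAMP pathway at rank 10 and rank 4. The cell lines had 32 listed genes of the cGMP-PKG pathway in common, among them GUCY1A2, PDE2A and PDE3A, with 20 found only in HepG2 and 23 only in Huh7. The corresponding numbers for the cAMP pathway were 39, 26 and 34. Of the 18 listed members in each cell line, 12 in HepG2 and 9 in Huh7 were in neither pathway. PRKAR1A, PRKAR2B, PDE7A, PDE7B, PDE8B and PDE10A were among these, and ADCY10 was in no KEGG pathway of either table.

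Purine metabolism (hsa00230), which holds the cyclases and PDEs as enzymes of nucleotides, took in more of them. It had 42 of 176 genes named in each cell line, and 16 of these in HepG2 and 17 in Huh7 were members. Its share was below that of all gene entries over the KEGG pathways, which was 26.3% in HepG2 and 25.8% in Huh7. Morphine addiction (hsa05032), with shares above those of all entries, had 28 of 93 genes named in HepG2, 12 of them members. In Huh7 it had 31 of 93, 13 of them members. The Huh7 members of both pathways include PDE11A, which was under no GO term and so is not a listed member. Each membrane-bound cyclase is annotated to many pathways. ADCY3 was named in 35 pathways in HepG2, and ADCY1, ADCY4, ADCY5 and ADCY8 in 33 to 37 pathways each in Huh7, whereas each listed PDE was named in 1 to 6. Members occurred in 40 of 279 pathways in HepG2 and in 46 of 280 in Huh7. Pathways that share these cyclases are therefore counted with the same genes, with 1 listed in HepG2 and 4 in Huh7.

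The other genes of cyclic nucleotide signaling were taken as 11 lists of textbook components, 152 genes together. The lists were chosen with earlier results of these data known, so their shares are not independent of the listing. Of these 48 were listed in HepG2 (31.6%), 43 in Huh7 (28.3%) and 24 in both, where the shares over all protein-coding genes were 23.9%, 21.9% and 11.4%. Upstream of cGMP, the list of peptide ligands, natriuretic peptide receptors and nitric oxide synthases had 2 of 11 genes listed in HepG2 (18.2%) and 6 of 11 in Huh7 (54.5%). NPPC, the C-type natriuretic peptide, was listed in both, the endothelial synthase NOS3 only in HepG2, and GUCA2B (uroguanylin), NOS1, NOS2, NPPB and the receptor NPR2 only in Huh7. Upstream of cAMP, 14 of 41 receptors coupled to the stimulatory G protein Gs were listed in HepG2 (34.1%) and 11 of 41 in Huh7 (26.8%). The receptors CALCR, GIPR, GLP2R, PTGER2 and PTH2R, for calcitonin, GIP, GLP-2, prostaglandin E2 and peptides of the parathyroid hormone family, were listed in both. Of the adenosine receptors in this list, ADORA2A was named only in HepG2 and ADORA2B only in Huh7. Of 15 G protein alpha subunits, 4 were listed in HepG2 (26.7%, near the 23.9% of all protein-coding genes) and 5 in Huh7 (33.3%, against 21.9%). GNA13, GNA14, GNAL and GNAZ were listed in both, and GNAT1 only in Huh7.

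Downstream, the list of PKG substrates and partners had the highest share in HepG2 among the lists of more than 10 genes, with 7 of 11 listed (63.6%), against 4 of 11 in Huh7 (36.4%). The large-conductance potassium channel KCNMA1, the myosin light chain kinase MYLK and the channel TRPC6 were listed in both. GTF2I, ITPR1, MRVI1 and RGS2 were named only in HepG2 and PLN only in Huh7. PKG itself was listed in neither cell line, as given above. Of 23 A-kinase anchoring proteins, which place PKA in the cell, 6 were listed in HepG2 (26.1%, near the 23.9% of all protein-coding genes) and 3 in Huh7 (13.0%, below the 21.9%), with AKAP1 and AKAP17A in both. Of 16 genes of the CREB family and its coactivators, 5 were listed in each cell line (31.2% each), and ATF4, CREB3L1, CREB5 and CRTC2 were listed in both.

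Of 10 genes that cAMP and CREB drive in hepatocytes, 3 were listed in each cell line (30.0% each). The shares of all protein-coding genes were 23.9% in HepG2 and 21.9% in Huh7. The 3 were the same in both, namely the immediate early genes FOS and NR4A1 and the clock gene PER1. The other 7 genes of the list were listed in neither. Of 15 effectors other than kinases, 4 were listed in HepG2 (26.7%) and 5 in Huh7 (33.3%). The channel CNGA1 was among those in both, whereas the channel subunits CNGA3 and CNGB1 were named only in HepG2 and the exchange factor RAPGEF3 (EPAC1) only in Huh7. Of the PKA inhibitors and related kinases, PKIB was listed in HepG2 and PKIA in Huh7, each 1 of 5 (20.0%). The export pump ABCC4 and the PDE6 inhibitory subunit PDE6G were listed only in HepG2, out of lists of 3 and 2 genes. Hepatocyte genes can be examined here only as listed or not, and this does not show whether the cells expressed them. Of 8 such markers, ALB and AFP were listed in both cell lines, and APOA1, APOB, FGB and TTR only in Huh7.

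**Figure D4:**
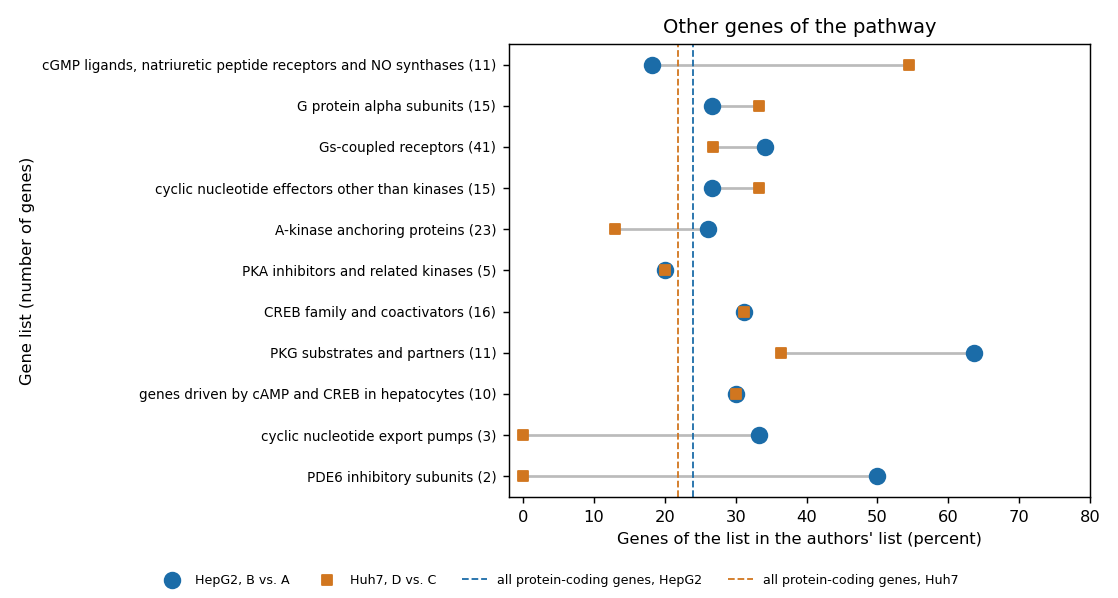
Percent of the genes of 11 lists of other components of cyclic nucleotide signaling that were listed in HepG2 (blue circles) and Huh7 (orange squares), with the size of each list in brackets and the shares of all protein-coding genes (23.9% and 21.9%) as dashed lines. The widest gaps among lists of more than 10 genes are those of the cGMP ligands, receptors and synthases (18.2% and 54.5%) and of the PKG substrates (63.6% and 36.4%), and a square inside a circle marks equal shares.

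At a given level a longer transcript gives more reads, so the lengths of the members stand beside their listing. The longest transcript of a member had a median of 4885 bases, against 3153 bases over all protein-coding genes. In HepG2 the median was 4967.5 bases for listed members and 4822 for the others, and in Huh7 it was 5333 and 4734. Over all protein-coding genes the medians of listed and other genes were 3332 and 3101 bases in HepG2 and 3269.5 and 3114 in Huh7. The 10 members listed in both cell lines spanned 3673 to 16205 bases, from PDE7A to GUCY1A2, and the 21 listed in neither spanned 1175 to 9908 bases, from PDE6D to ADCY2, so that the lengths of these groups overlapped. The part of length in the listing of the members was not tested.

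**Figure D5:**
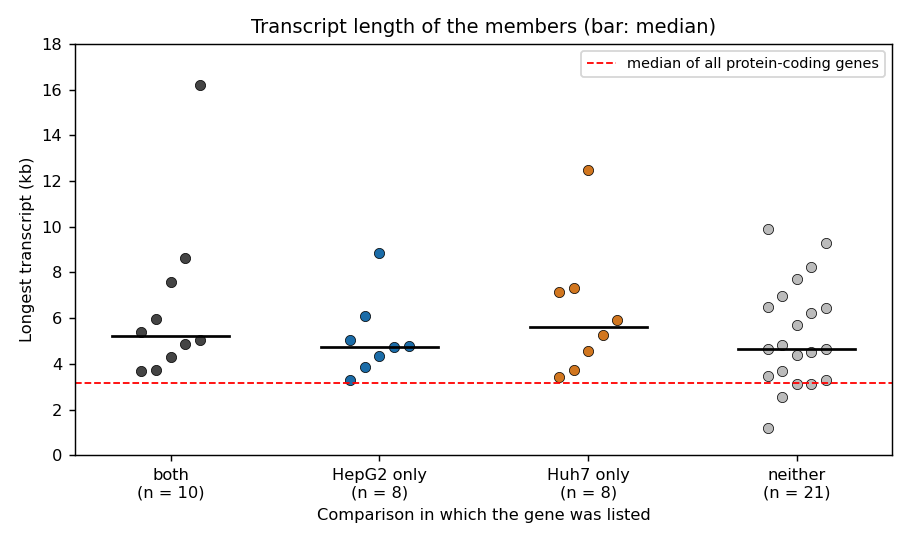
Length of the longest transcript of each member, in kb, by the comparison in which it was listed, with 1 point for each identifier, a black bar at the median of each group and a red dashed line at the median of all protein-coding genes (3153 bases). The medians are 5222.5 bases for members listed in both cell lines, 4757.5 for HepG2 only, 5607 for Huh7 only and 4664 for neither, and the points of all groups overlap.

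Some members share sequence with another gene, so the gene to which their reads were counted is uncertain. Of the 47 identifiers, 41 had more than 99% of the 75-base stretches of their transcripts to themselves, and 4 had less than 90%. Both PDE11A identifiers were among the 4. ENSG00000284741 had 4.77% of its stretches to itself and shared 92.4% with ENSG00000128655, of whose stretches 74.9% were unique. Neither was under a GO term, but ENSG00000284741 was named in Huh7 under the KEGG pathways purine metabolism and morphine addiction. PDE4C, listed in neither cell line, shared 65.4% of its stretches with the protein-coding gene AC008397.2, which was under no GO term but was named in both cell lines under the cAMP signaling pathway. PDE8B, listed in both, shared 39.0% with AC022414.1, a protein-coding gene that was itself listed in HepG2 and not in Huh7. PRKAR1A and ADCY4 shared 6.21% and 5.09% of their stretches with another gene that was listed in neither.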

How the data were processed

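Ribosomal RNA-depleted total RNA of 4 groups (A and B, HepG2; C and D, Huh7; 1 library each) was sequenced, and groups were taken from the sample labels. The authors took mRNAs with an adjusted p-value below 0.05 as differentially expressed. For this step the authors name Cuffdiff (2.1.1) in the methods and edgeR in the results. The submitters' processing notes name Bowtie2 (2.2.8), HISAT2 and StringTie (1.3.1), and the genome build is not given in the sources used here. The deposited tables are the authors' GO (GOseq) and KEGG (KOBAS) results, whose counts are numbers of genes and not of reads. Their p-value and corrected p-value columns hold the authors' own tests and were not used. Depth is not in these tables, and no interval or test was computed.

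Gene lists were rebuilt with Python 3.11.15 by joining the identifiers of every GO term. Gene type, symbol and transcripts came from GENCODE release 29, matched by identifier. Background shares were counted over 19951 protein-coding genes, over 22148 genes of the GO background, and over gene entries summed across KEGG pathways. The members and the lists of pathway genes were chosen with earlier results of these data known, and the classes of enzyme were assigned after the listings had been seen. All members were named by their listing, and genes of the pathway lists were named where listed in both comparisons, with others added for description; some genes are not reported here. Promoters were RefSeq windows of 300 bases. Shared sequence was counted as 75-base stretches present in transcripts of another gene. The counting was tested on simulated lists. The alternatives were the KEGG tables in place of or beside the GO tables, GO terms with at least 2 listed genes, and other member sets. Others were pathways without their listed members, and exon unions for length.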

Additional observations from a re-analysis of the deposited data

How the results depend on the processing

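The number of listed members stayed between 17 and 19 in HepG2, between 17 and 19 in Huh7 and between 9 and 10 in both under all alternatives run, against 18, 18 and 10 as reported. These alternatives were the GO and KEGG tables together, the KEGG tables alone, GO terms with at least 2 listed genes, and member sets without PDE6D, without the kinases, or with PDE6G, PDE6H, PRKACG and PRKX. The KEGG tables alone lost ADCY10 in both cell lines, which is in no KEGG pathway, and gained PDE11A in Huh7. Counting PDE11A once by symbol in either kind of table, an alternative chosen after seeing the data, gave 18, 19 and 10 of 46 symbols. Lengths measured as the union of exons gave medians of 6882.5 bases for listed and 6730 for other members in HepG2 and of 7303.5 and 6646 in Huh7. No paired analysis was possible because each group has 1 library and the tables hold no values per library. For the same reason no library could be left out. The threshold of the authors' calls, the filter on low expression and the normalization could not be varied, so how the listings depend on them was not tested.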

Other observations

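Some terms for PKA, for adenylate cyclase binding and for the response to cAMP had different shares in the 2 cell lines. Few or none of the genes listed under them were members. Members that were not listed could not be counted in these terms. Of the 19 genes of the term for binding of the PKA regulatory subunit, 10 were listed in HepG2 (52.6%) and 3 in Huh7 (15.8%). For the PKA signaling cascade, 16 of 36 genes were listed in HepG2 (44.4%) and 7 of 36 in Huh7 (19.4%). Adenylate cyclase binding had 6 of 13 genes listed in HepG2 (46.2%) and 1 of 13 in Huh7 (7.69%), which was the member ADCY5. The term for response to cAMP had 44 of 100 genes listed in HepG2 (44.0%) and 30 of 100 in Huh7 (30.0%). PDE2A was the only member among the listed genes. The shares of the whole GO background were 21.6% and 19.7%. In the opposite order, the adenylate cyclase-activating branch of G protein-coupled receptor signaling had 31 of 128 genes listed in HepG2 (24.2%) and 46 of 128 in Huh7 (35.9%). The difference between the cell lines was not tested for any of these terms, and the terms were singled out after their values were seen.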
